A study of Coregonus migratorius and Coregonus peled with 8 samples.

Results

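A small group of genes stood lower after warming in whole larvae of both the omul of Lake Baikal (Coregonus migratorius) and the peled (Coregonus peled), a pair of Siberian whitefishes. The 36 genes described here are those, of 2184 listed, whose value was at least 2-fold lower in heated than in unheated larvae of both species. A gene was taken when the log2 ratio of the heated to the control library, with 1 added to each value, was at most -1 in omul and in peled after the same regime, and when the higher library of each pair compared reached 10. Of the 36 members, 6 met this after acute warming alone, 21 after chronic warming alone and 9 after both regimes. A further gene, TRINITY_DN52243_c1_g1, was lower after chronic warming in both species but was left out because its acute value was at least 2-fold above the control in both. Since the ratios of heated to control libraries chose the members, these ratios are given below as a description and without a test.

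Whitefishes are coldwater relatives of salmon and trout. In fish cells, as in other animal cells, sudden warming activates heat shock factor, which raises the genes of chaperone proteins, while transcription and translation of many other genes are reduced. Repeated or lasting warming is followed by slower adjustments of metabolism, growth and membrane composition, and part of the early response subsides. The salmonid lineage went through a duplication of the whole genome, so near-identical copies of a gene are common in these fishes and reads can be divided between them uncertainly.

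Messenger RNA of whole larvae was sequenced, and each library was a pool of 12 to 16 larvae. There was 1 library for each species in each of 4 states. The unheated control larvae had been kept in aquaculture for 1.5 months at 9 to 12 °C, as had the heated larvae. Acute warming meant 21 °C for 1 h, and chronic warming meant 21 °C for 24 h, 3 times a week. The larvae called nature were untreated larvae taken from ponds at a hatchery, and neither their age nor their temperature is given, so that origin cannot be told apart from these. No strain, genotype or other agent is named. With 1 library in each group no difference within a species has a replicate check, and no SD can be given. Pooled whole larvae also mean that a lower value from fewer cells of a type and one from less RNA per cell cannot be told apart.

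The deposited values are normalized expression signals of unstated unit, whose sums over the listed genes ran from 79169 to 228369 per library. Sequencing depth is unknown. The listed genes are a selection, since the smallest log2 range of a listed gene over the 8 libraries was 2.25, and the members' own ranges ran from 2.60 to 5.48. The part of this selection in the shares of listed genes given below was not tested. The nature libraries stood apart from the rest. Across the listed genes, on the log2(value + 1) scale, they correlated with each other at r = 0.93. The library labelled peled from nature correlated with the 3 omul aquaculture libraries at 0.64 to 0.65 and with the 3 of its own species at 0.22 to 0.41, whereas the library labelled omul from nature correlated at 0.65 to 0.68 with omul and 0.36 to 0.51 with peled. Every nature value below is that of the library so labelled, and the part of this likeness in the results on nature was not tested.

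The genes carry identifiers of a de novo assembly that the files do not pair with gene names, so no member can be given a function, and no larval tissue could be checked by its markers. No member was listed at 0 in any library, and all 36 had a value of at least 10 in both control libraries, as did 433 genes of the list.

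Over the members, the median value in omul was 33.8 in the control library, 17.96 in the acute and 10.8 in the chronic one, and for peled it was 29.2, 13.0 and 8.02. The members together made up 1.59% of the summed value of the omul control library and 0.470% of that of the chronic omul library. In peled their share was 2.74% in the control and 0.654% after chronic warming. The order control, acute, chronic from high to low held in both species for 19 of the 36 members. In the remaining genes acute and chronic warming changed places in at least 1 species, or the acute value stood above the control. The descending order is favoured by the choice of members, most of which met the rule after chronic warming alone.

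**Figure D1:**
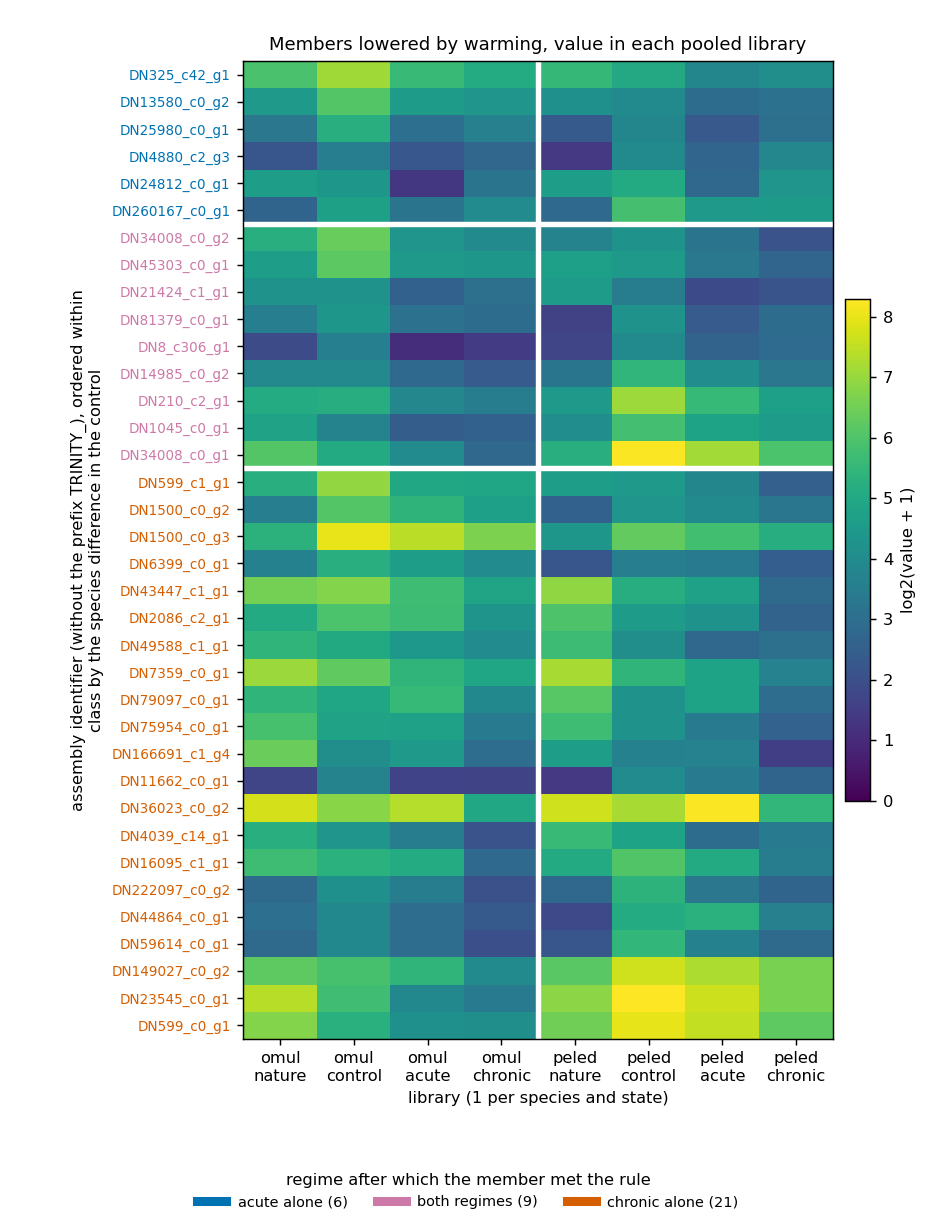
Values of the 36 members as log2(value + 1) in the 8 pooled libraries, with rows coloured by the regime after which the gene met the rule and ordered within each class by the species difference in the control. In each species block the control column is mostly lighter than the chronic column, by the choice of members, and the rows at the top and bottom of the chronic-alone class are light in opposite species.

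Acute values were at least 2-fold below control in both species for 15 of the 518 genes that could be read in both, which is 2.9% of them, and for chronic warming this was 31 of 550, or 5.64%. All 15 acute genes are members, and 30 of the 31 chronic ones are, the exception being TRINITY_DN52243_c1_g1. Read in a single species, acute values were at least 2-fold below control for 20 of the 36 members in omul and 19 in peled, where 10.5% and 7.07% of all genes reaching 10 were. Chronic values were at least 2-fold below control for 34 members in omul and 31 in peled, against 10.7% and 16.3% of all such genes. These shares follow from the choice of members. For all genes readable in both species the median ratio after acute warming was 0.01 (log2) for omul and -0.11 for peled, and after chronic warming 0.07 and 0.39. Over these 518 and 550 genes the medians were near 0, save for the higher one of peled after chronic warming.

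**Figure D2:**
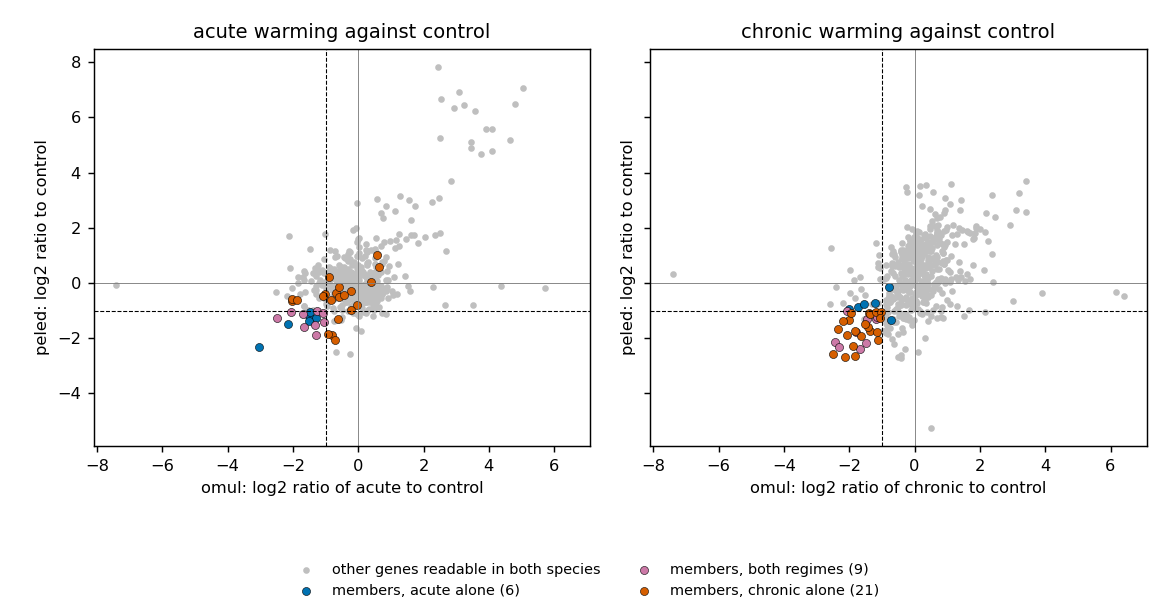
Log2 ratio to the control in omul (horizontal) and peled (vertical) for the 518 genes readable after acute warming and the 550 readable after chronic warming, with members in colour and the threshold of -1 as broken lines. Members lie in the lower left corner of the panel of the regime that chose them, and those chosen after both regimes in that of both panels. The non-member TRINITY_DN52243_c1_g1 also lies in this corner of the chronic panel. In the acute panel 3 members chosen after chronic warming alone lie above 0 in both species.

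The 9 members that were lower after both regimes had a median value of 20.01 in control omul, 7.64 in acute and 6.65 in chronic omul, and of 20.99, 9.07 and 6.68 in peled. Both regimes share the control library of their species, so a high control value alone can place a gene in this class. Their acute and chronic values can be compared without the control. In 5 of the 9 the chronic value was the lower in both species, and in 2 it was the higher in both, namely TRINITY_DN21424_c1_g1 and TRINITY_DN8_c306_g1. The 5 include TRINITY_DN34008_c0_g1 and TRINITY_DN34008_c0_g2, which share an assembly component. How often all readable genes took either order was not counted, so the counts cannot be called particular to these members.

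TRINITY_DN34008_c0_g1 had the highest peled values of this class, with 302 in the control, 140.1 after acute warming, 60.03 after chronic warming and 36.8 in nature. In omul the same gene was at 32.9, 14.9, 5.78 and 66.2. Its log2 ratios to control were nearly the same in both species, -1.09 in omul and -1.10 in peled after acute warming and -2.32 and -2.31 after chronic warming, although the control of peled lay 3.16 above that of omul on the log2 scale.

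TRINITY_DN34008_c0_g2, from the same assembly component, was at 81.6 in control, 18.9 in acute, 14.3 in chronic and 35.5 in nature omul. The peled values were 17.9, 8.23, 3.33 and 12.0. Here omul held the higher values in every state, the reverse of its neighbour in the 3 aquaculture states.

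TRINITY_DN210_c2_g1 had 34.7 in the omul control, 13.2 after acute warming, 10.2 after chronic warming and 33.3 in nature. The corresponding peled values were 135, 46.3, 24.9 and 20.998. Omul from nature was thus at the level of the omul control, whereas peled from nature was below both heated peled libraries.

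TRINITY_DN14985_c0_g2 behaved likewise, at 13.8 in control, 6.19 in acute, 4.26 in chronic and 13.98 in nature omul. Its peled values were 43.2, 15.6, 8.68 and 8.38. TRINITY_DN1045_c0_g1 was at 12.0 in control omul, 4.43 in acute, 4.91 in chronic and 26.5 in nature. Peled had 54.8, 26.8, 22.7 and 15.8, the nature value again below both heated libraries, and its acute log2 ratio of -1.01 was the nearest of all members to the threshold.

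TRINITY_DN45303_c0_g1 was higher in omul, with 72.003 in the control, 21.5 after acute warming, 20.05 after chronic warming and 23.3 in nature. Peled had 20.99, 9.07, 5.49 and 24.8. Heated and nature omul lay close together, while nature peled lay above the peled control. TRINITY_DN21424_c1_g1 was at 17.8 in control, 5.02 in acute, 7.34 in chronic and 17.7 in nature omul. Its peled values were 10.2, 2.64 and 3.47, with 22.9 in nature, so that nature was at or above the control in both species.

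TRINITY_DN81379_c0_g1 was at 20.01 in control, 7.64 in acute, 6.65 in chronic and 10.8 in nature omul, and for peled at 17.9, 4.17, 6.68 and 2.06. TRINITY_DN8_c306_g1 had the lowest omul values of the class, with 10.8 in control, 1.12 in acute, 1.79 in chronic and 2.71 in nature, and 14.2, 5.25, 6.51 and 2.29 in peled. In both genes the 2 controls were close, and nature was below control in both species.

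The 6 members chosen by acute warming alone had median values of 30.2 in control, 7.71 in acute and 13.1 in chronic omul, and of 23.1, 6.17 and 14.7 in peled. In peled all 6 stood higher after chronic than after acute warming, and 4 of the 6 did so in omul as well. A member had to have a chronic ratio above -1 in at least 1 species to be in this class, which favours such an order. TRINITY_DN24812_c0_g1 had the lowest acute ratios of any member, -3.05 in omul and -2.31 in peled. In omul it was at 19.99 in the control, 1.53 after acute warming, 8.10 after chronic warming and 23.8 in nature. The peled values were 32.6, 5.78, 19.1 and 23.7. Chronic values lay between acute and control in both species, and the nature values of the species were nearly equal.

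TRINITY_DN25980_c0_g1 was at 35.3 in control, 7.23 in acute, 11.3 in chronic and 8.78 in nature omul, and for peled at 13.0, 3.97, 7.26 and 4.09. In the same order TRINITY_DN260167_c0_g1 had 24.98, 8.19, 14.9 and 5.41 (omul) and 56.7, 21.4, 21.8 and 6.16 (peled). TRINITY_DN4880_c2_g3 had 10.6, 3.72, 5.67 and 3.68 (omul) and 14.8, 5.47, 13.4 and 1.61 (peled), where the chronic log2 ratio to control was -0.13, the smallest among the members. In the latter pair nature lay below acute and chronic values in both species.

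The remaining acute members, TRINITY_DN325_c42_g1 and TRINITY_DN13580_c0_g2, differed from these 4 in omul. TRINITY_DN325_c42_g1 was at 138 in control, 47.5 in acute and 33.6 in chronic omul, and TRINITY_DN13580_c0_g2 at 65.6, 23.1 and 19.2, so chronic values lay below acute ones. Their chronic log2 ratios in omul were -2.005 and -1.72, but in peled -0.93 and -0.87, which kept them out of the class lower after both regimes.

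The 21 members chosen by chronic warming alone had median values of 37.2 in control, 26.1 in acute and 14.1 in chronic omul, and of 32.96, 17.996 and 7.26 in peled. Their median acute ratio was -0.67 (log2) for omul and -0.50 for peled, and their median chronic ratio -1.64 and -1.68. In 14 of the 21 the values descended from control over acute to chronic in both species. A member had to have an acute ratio above -1 in at least 1 species to be in this class, which favours such an order. Acute values stood at least 2-fold below control in exactly 1 species for 9 of the 21, 5 in omul and 4 in peled.

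TRINITY_DN16095_c1_g1 had the largest chronic difference shared by the species, with log2 ratios of -2.49 in omul and -2.57 in peled. It was at 38.6 in control, 33.2 in acute, 6.06 in chronic and 51.97 in nature omul. Peled had 64.6, 32.3, 10.05 and 32.8. The acute omul value was close to the control, and the chronic value was the lowest in each species.

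TRINITY_DN222097_c0_g2 was at 17.1 in control, 10.1 in acute, 3.15 in chronic and 6.31 in nature omul, and for peled at 40.3, 8.80, 5.44 and 5.79. TRINITY_DN43447_c1_g1 was at 106 in control, 51.1 in acute, 27.8 in chronic and 94.2 in nature omul, and for peled at 34.8, 25.9, 6.27 and 121. In peled the acute value of the former lay near its chronic value, and that of the latter near its control. TRINITY_DN599_c1_g1 was at 122 in control, 29.3 in acute, 28.3 in chronic and 36.3 in nature omul, so its acute and chronic omul values were alike. The peled values were 20.8, 13.0, 4.87 and 24.0, and the acute value lay between control and chronic.

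Acute values stood above control in both species for 3 of these chronic members, and of them all but TRINITY_DN36023_c0_g2 are named because their values were seen. This gene, with TRINITY_DN23545_c0_g1, had the highest mean value of the members, and it was at 111 in control, 164 in acute, 30.3 in chronic and 213 in nature omul. Peled had 148, 299, 43.9 and 205. Acute ratios of 0.56 in omul and 1.01 in peled stand beside chronic ratios of -1.84 and -1.73. TRINITY_DN79097_c0_g1 had acute ratios of 0.63 and 0.57 and chronic ratios of -1.04 and -1.26. TRINITY_DN166691_c1_g4 had acute ratios of 0.39 and 0.04 and chronic ratios of -1.12 and -2.08. The gene that was left out, TRINITY_DN52243_c1_g1, extends this pattern, with 45.2 in control, 102 in acute and 14.7 in chronic omul and, for peled, 10.7, 33.4 and 3.75.

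**Figure D3:**
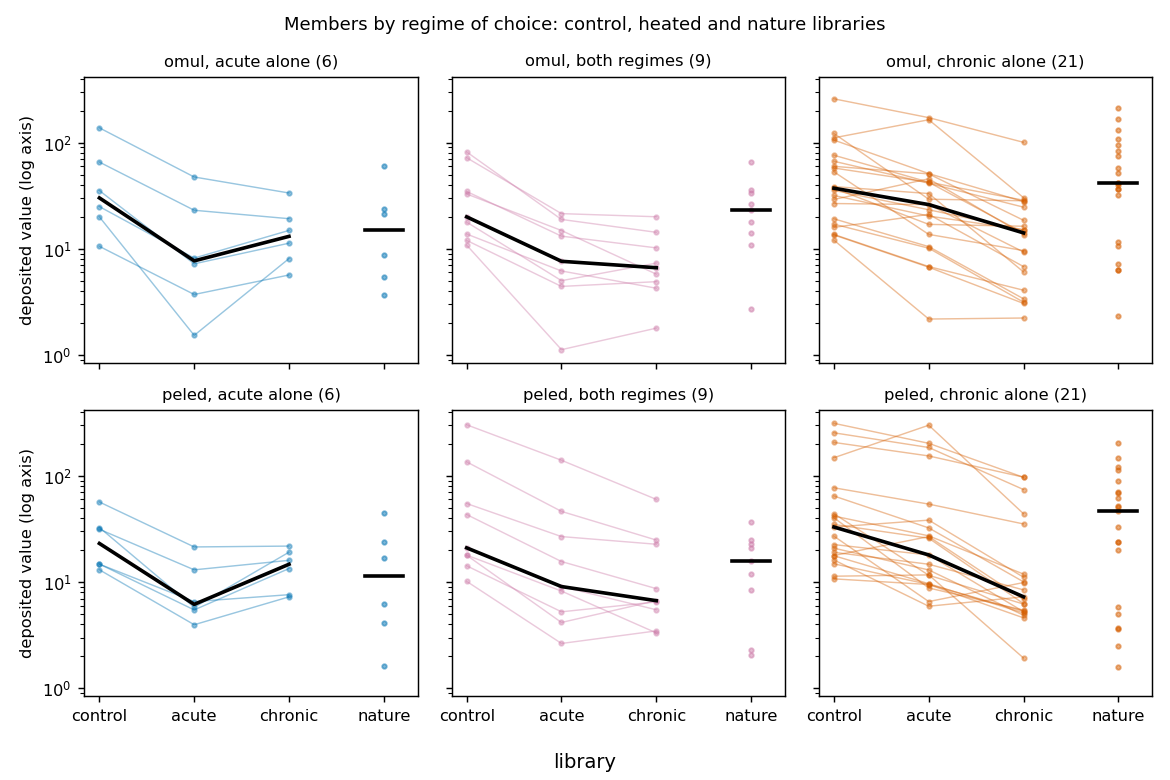
Values of each member (thin lines and points, log axis) in the control, acute, chronic and nature libraries of omul (top) and peled (bottom), by the regime that chose it, with the class median in black. The acute-alone median is higher after chronic than after acute warming, 13.1 against 7.71 in omul and 14.7 against 6.17 in peled. The chronic-alone median descends in steps. Both orders are favoured by the definition of the classes.

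Membership is a matter of degree near the threshold. After acute warming TRINITY_DN1045_c0_g1 was the last inside, with -1.01 in peled, and TRINITY_DN21756_c0_g1 the first outside, with -1.38 in omul and -0.997 in peled, from 33.5 to 12.2 and from 75.9 to 37.5. After chronic warming TRINITY_DN8_c306_g1 was the last inside, with -1.02 in peled, and TRINITY_DN10717_c0_g1 the first outside, with -0.993 in omul and -1.28 in peled, from 17.4 to 8.24 and from 40.04 to 15.9. At the minimum value, TRINITY_DN21424_c1_g1 was kept with 10.2 in the peled control. TRINITY_DN30774_c0_g1, at 34.4 and 6.99 in control and acute omul and 9.74 and 3.94 in peled, was not.

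The 36 members come from 34 assembly components, the units within which this assembler groups related contigs, and 2 components hold a pair of members each. The pairs were of different kinds. TRINITY_DN1500_c0_g3 was at 258 in control, 172 in acute, 100.6 in chronic and 39.5 in nature omul, and for peled at 77.2, 54.2, 35.2 and 20.1. In the same order TRINITY_DN1500_c0_g2 had 66.7, 41.4, 24.7 and 10.6 (omul) and 19.1, 14.7, 8.44 and 5.003 (peled). The ratio of the first to the second stayed between 3.68 and 4.18 in all 8 libraries, so the pair carried a single pattern and should be read as 1 observation.

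In the other pair the ratio of TRINITY_DN34008_c0_g1 to TRINITY_DN34008_c0_g2 was 0.402 in control, 0.787 in acute and 0.404 in chronic omul, and 16.9, 17.03 and 18.1 in peled. In nature it was 1.86 in omul and 3.06 in peled, between these levels. Both features fell with warming in both species, as the rule required, but their acute log2 ratios to control in omul differed, at -1.09 and -2.05. The features held opposite places in the aquaculture libraries of the species. Summed, the pair had acute log2 ratios of -1.73 in omul and -1.10 in peled and chronic ones of -2.45 and -2.32, and its species difference in the control, peled against omul, was 1.48 where the single features had 3.16 and -2.13.

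A pair found after the values were seen behaved in the same way. TRINITY_DN599_c0_g1 and TRINITY_DN599_c1_g1 share the first part of their identifier but not the component. TRINITY_DN599_c0_g1 was at 37.2 in control, 16.999 in acute, 16.3 in chronic and 107 in nature omul, and for peled at 254, 185, 74.3 and 89.7. Its ratio to TRINITY_DN599_c1_g1 was 0.305 to 0.580 in the 3 aquaculture omul libraries, 12.2 to 15.2 in the 3 of peled, and 2.95 and 3.74 in nature omul and peled. Whether such features are copies, alleles or separate genes cannot be told from the files, and whether reads were shared between them was not tested.

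**Figure D4:**
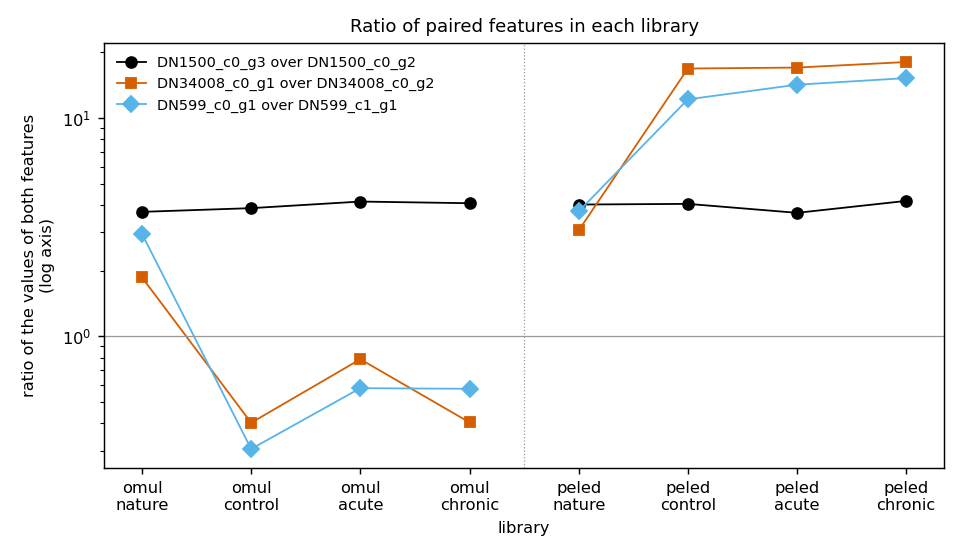
Ratio of the values of paired features (log axis) in each of the 8 libraries, for 2 pairs of members from the same component and 1 pair that shares the first part of the identifier. The ratio of TRINITY_DN1500_c0_g3 to TRINITY_DN1500_c0_g2 is level at 3.68 to 4.18, whereas the other ratios are below 1 in aquaculture omul, above 12 in aquaculture peled and between 1.86 and 3.74 in nature.

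The libraries from nature had no part in choosing the members. Nature values were below the control in both species for 14 of the 36 members, above it in both for 7, below in omul and above in peled for 7, and above in omul and below in peled for 8. Among the 433 genes at 10 or more in both controls the same classes held 40.6%, 37%, 10.9% and 11.5%, and among all genes 19.4%, 28.4%, 24% and 28.2%. The members were chosen for high control values, which can by itself place nature below the control, so this comparison is not tested. Nature lay below both heated libraries in both species for 5 members and above both in both species for 13. Nature thus took no single place among the aquaculture states in these members. The low heated values by which members were chosen favour the latter order, and the same counts over all genes were not made.

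The 5 members below the heated libraries were the TRINITY_DN1500 pair, TRINITY_DN260167_c0_g1, TRINITY_DN4880_c2_g3 and TRINITY_DN6399_c0_g1. TRINITY_DN6399_c0_g1 was at 11.6 in nature, 35.5 in control, 23.3 in acute and 15.1 in chronic omul, and for peled at 3.66, 10.7, 9.49 and 4.61. All 7 members above the control in both species belonged to the class chosen by chronic warming alone, which holds 21 of the 36. At least 2-fold above control in both species were 2 of them, TRINITY_DN75954_c0_g1 and TRINITY_DN166691_c1_g4. The latter was at 83.1 in nature, 15.9 in control, 21.1 in acute and 6.81 in chronic omul, and for peled at 23.7, 11.4, 11.7 and 1.93.

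Nature was tested against the mean of the 3 aquaculture states, a contrast that does not depend on the differences among these states. The test used an additive limma fit of species and state to the 8 libraries (n = 2 libraries per state). The minimum value in both controls can still raise the aquaculture mean of the members, as it can for the 433 genes. Of the 36 members 0 passed (limma, Benjamini-Hochberg adjusted p below 0.05 over 2184 genes), while 2.11% of all genes and 2.54% of the 433 genes did. The error of this fit includes any species difference particular to nature. Its median residual SD over all genes was 0.973, and 0.380 with a term for that difference. The count of 0 thus does not show that nature and aquaculture were alike in the members. An unadjusted p below 0.05 was found for 4 members, beside 25.8% of all genes and 36.3% of the 433 genes. The largest difference among members was that of TRINITY_DN166691_c1_g4, 2.12 higher in nature on the log2 scale (SE 0.94, limma adjusted p = 0.153). At the other end TRINITY_DN260167_c0_g1 had a difference of -1.70. The median difference was 0.36 over the members and 0.63 over all genes. Without omul from nature 21 members were called, 10 higher and 11 lower, beside 75.3% of all genes and 85.5% of the 433 genes, and the members' median difference was -0.69. Without peled from nature 10 were called, 8 higher and 2 lower, beside 30.3% and 22.6%, with a median of 0.48. With a term for the species difference in nature added 20 were called, beside 64.7% and 82.2%. In these 3 fits the error comes from the aquaculture libraries that chose the members, so their counts are no test of the members.

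Species differences were read next. Their mean over the states does not depend on the ratios to control. The minimum value in both controls still excludes genes nearly absent from a species. From the control to a heated state, the species difference changes by the difference between the species' ratios to control, which the rule restricted. Counts that use the single aquaculture states are therefore a description. In the 3 aquaculture states 15 members were higher in peled each time and 17 higher in omul each time, and for 4 the sign varied. The sign was constant in 89.5% of all genes and in 80.4% of the 433 genes at 10 or more in both controls. Among the 15 members higher in peled, 14 were lower in peled than in omul in nature. Of the 17 higher in omul, 7 were lower in omul in nature. The share of all genes whose sign turned in nature was not counted, so this cannot be called particular to the members.

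The median size of the species difference over the members, on the log2 scale, was 1.37 in the control library, 1.25 in the acute, 1.22 in the chronic and 0.56 in the nature library. Over the 433 genes it was 1.37, 1.82, 1.07 and 0.80, and over all genes 2.15, 2.28, 2.06 and 0.57. In nature the species difference was smaller than in each aquaculture state for 26 of the 36 members, against 47.3% of the 433 genes and 73.4% of all genes. At least 2-fold apart in nature were 4 of the 28 members whose higher library reached 10, where 24.9% of all such genes and 32.9% of those at 10 or more in both controls were. In the control 11 of 36 members were at least 2-fold higher in peled and 11 in omul (background 86.4% and 60.7% in either direction). After acute warming these were 9 and 11 of 29 (89.4% and 74.6%), and after chronic warming 9 and 11 of 26 (81.8% and 54.4%). The 4 apart in nature were TRINITY_DN81379_c0_g1, TRINITY_DN34008_c0_g2, TRINITY_DN6399_c0_g1 and TRINITY_DN166691_c1_g4, and in each omul was higher.

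**Figure D5:**
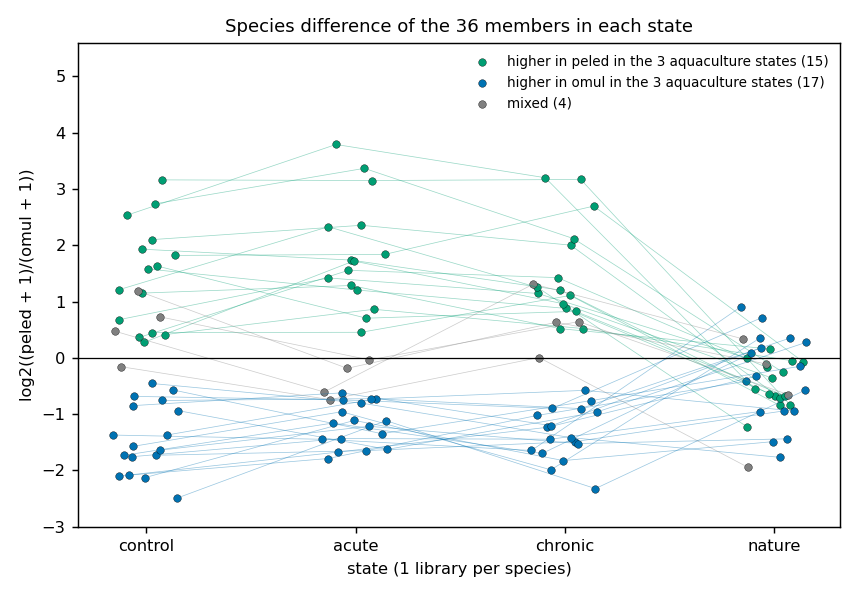
Species difference of each member, as the log2 ratio of peled to omul with 1 added to each value, in the 4 states, with points of the same gene joined and coloured by the sign in the 3 aquaculture states. By this colouring the groups stand apart on either side of 0 in control, acute and chronic libraries. In nature, which the colouring did not use, they overlap, and the values lie between -1.95 and 0.91.

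In the limma fit over the 8 libraries 2 members were higher in peled and 0 lower (adjusted p below 0.05 over 2184 genes), with 35.9% of all genes and 9.7% of the 433 genes called in either direction. Higher in peled were 17.9% of all genes and 5.77% of the 433, and lower 17.9% and 3.93%. An unadjusted p below 0.05 was found for 4 members, beside 50.7% of all genes and 18.2% of the 433 genes. TRINITY_DN23545_c0_g1 was at 53.0 in control, 13.7 in acute, 9.63 in chronic and 167 in nature omul. Peled had 312, 202, 96.8 and 114. Its difference was 2.24 on the log2 scale (SE 0.91, limma adjusted p = 0.0422), higher in peled in 3 of 4 states. The difference of TRINITY_DN34008_c0_g1, with the values given above, was 2.16 (SE 0.89, limma adjusted p = 0.0452), also higher in peled in 3 of 4 states. Both differences are averages over the 4 states. In aquaculture they were 3.18 for TRINITY_DN23545_c0_g1 and 3.16 for TRINITY_DN34008_c0_g1, and in nature -0.55 and -0.83. For both genes the call was lost whenever any single aquaculture library was left out, as were most calls over all genes. The averaged differences were then 1.73 to 2.15 for TRINITY_DN23545_c0_g1 and 1.83 for TRINITY_DN34008_c0_g1.

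The 6 aquaculture-reared libraries alone give no independent test of the members, since the error of that fit is the disagreement of the species over the states, which the rule kept small. The median residual SD was 0.288 over the members, 0.380 over all genes and 0.459 over the 433 genes. As a description, that fit listed 30 members past the limma threshold, 13 higher and 17 lower in peled, beside 84.4% of all genes and 66.3% of the 433 genes. Among all genes 38.7% were higher and 45.7% lower, and among the 433 genes 25.6% and 40.6%. The differences there ran from -1.98 for TRINITY_DN599_c1_g1 to 3.18 for TRINITY_DN23545_c0_g1.

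How far the species difference in nature departed from that in aquaculture was estimated by adding a term for it to the fit over 8 libraries, after the data were seen. The error of this fit too comes from the aquaculture libraries alone, with the same residual SDs, so it is given as a description of the members and not as a test. Past the limma threshold were 12 of the 36 members, beside 68.8% of all genes and 51.3% of the 433 genes. Downward departures, in which peled stood lower against omul in nature than in aquaculture, were listed for 11 of the 36 members, beside 34.9% of all genes and 27.5% of the 433, and upward ones for 1 of 36, beside 33.9% and 23.8%. After scaling to a common median these counts were 7 and 3, and with a pseudocount of 5 they were 8 and 4. Over all 2184 genes there were 722 downward and 766 upward after scaling, and 708 and 724 with a pseudocount of 5. The largest were those of TRINITY_DN34008_c0_g1, by -3.99 on the log2 scale, and of TRINITY_DN23545_c0_g1, by -3.73. The one upward departure was that of TRINITY_DN2086_c2_g1, at 59.8 in control, 50.7 in acute, 18.6 in chronic and 32.3 in nature omul, and for peled at 22.5, 17.996, 5.26 and 61.3, a departure of 2.39. Each nature group is a single library, so a species difference in nature cannot be told apart from a difference between these pools.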

How the data were processed

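Per the labels' protocols, poly(A) RNA of 12 to 16 pooled whole larvae was sequenced for each of 8 libraries. The authors deposited 1 normalized signal per gene and library. Its unit is not given, and Trimmomatic 0.36 and edgeR 4.0.3 are named without a role, per the submitters' processing notes. The files list 2184 genes (aligner, quantifier, annotation and selection not given in the sources used here). Depth is unknown, so no counting interval is given.

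Members were found by the rule stated above, with a pseudocount of 1. The members and the tests were chosen with earlier results of these data known. Species and origin were tested on log2(value + 1) in limma 3.58.1, run in R 4.3.3 with its trend option, with additive terms for species and state over 8 libraries (3 residual degrees of freedom). A filter on mean values under 1 removed 0 genes. P-values were adjusted over 2184 genes by Benjamini-Hochberg. No group has a replicate pool, so they rest on the spread between pools of different species. In this additive fit limma took each gene's error from the trend over all genes and not from its own residuals. The SEs given are thus those of genes of like level. The median residual SD in this fit was 0.558 over the members, 0.973 over all genes and 0.890 over the 433 genes. In the members the rule kept small the disagreement of the species over the aquaculture states, which is part of this residual. The fit with a term for the species difference in nature has 2 residual degrees of freedom. Named were all members lower after both regimes, the 4 with the largest smaller-of-both-species difference in each other class, members that share a component, called members, those nearest the threshold and the 2 of highest value. Other members with values in the text were chosen after their values were seen. Alternatives changed the pseudocount, the minimum value, the scaling, the trend and the libraries used.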

Additional observations from a re-analysis of the deposited data

Results flagged for a closer look

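In 12 members the species difference (peled minus omul, log2) in nature departed from that in aquaculture past the limma threshold. This was read from the term added to the fit after the data were seen. The same threshold was passed by 68.8% of all genes and 51.3% of the 433 genes, beside 33.3% of the members. These shares are of a list selected for genes that varied over the 8 libraries. Members can meet such a selection by their heated values alone, so the members cannot be called less divergent from these shares. The error of that fit comes from the aquaculture libraries that chose the members, so the departures are a description of these libraries and no independent test. The departure was -3.99 for TRINITY_DN34008_c0_g1, -3.73 for TRINITY_DN23545_c0_g1, -2.996 for TRINITY_DN599_c0_g1 and -2.86 for TRINITY_DN1045_c0_g1, and in these 4 genes nature was above the aquaculture mean in omul and below it in peled. TRINITY_DN34008_c0_g1 lay 2.13 above in omul and -1.87 from it in peled. TRINITY_DN210_c2_g1, with a departure of -2.27, TRINITY_DN149027_c0_g2, with -2.19, and TRINITY_DN14985_c0_g2, with -1.90, showed the same opposite signs. TRINITY_DN44864_c0_g1 had a departure of -2.82, and its nature value lay -2.84 from the aquaculture mean in peled and -0.03 in omul. Smaller departures were those of TRINITY_DN59614_c0_g1, at -1.73, TRINITY_DN81379_c0_g1, at -1.65, and TRINITY_DN4880_c2_g3, at -1.51. The only positive departure was 2.39, for TRINITY_DN2086_c2_g1.

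Over 9 alternatives to this fit, TRINITY_DN34008_c0_g1, TRINITY_DN23545_c0_g1, TRINITY_DN599_c0_g1, TRINITY_DN1045_c0_g1, TRINITY_DN44864_c0_g1 and TRINITY_DN2086_c2_g1 stayed past its threshold each time. TRINITY_DN4880_c2_g3 passed it in 0 of the 9. These fits too take their error from the aquaculture libraries that chose the members, so staying past the threshold is no test. How many of all genes stayed past it over the 9 was not counted.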

How the results depend on the processing

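The number of members, 36, was 39 with a pseudocount of 0.1 and 36 with libraries scaled to a common median, of which 34 were among the 36. It was also 36 with values summed over assembly components. It was 23 with a pseudocount of 5, 60 with a minimum value of 5, 90 with no minimum and 15 with a minimum of 20. Called members in the species contrast, 2, became 0 with a pseudocount of 0.1, a pseudocount of 5 or a mean value of at least 10, and 30 with the 6 aquaculture-reared libraries. Leaving out a library gave 0 to 30, with 30 without either nature library, where 84.4% to 84.5% of all genes were called, since the fit then takes the species difference from aquaculture alone. The nature contrast, with 0 called, gave 0 to 21 when a library was left out (75.3% of all genes at 21) and 20 with the term for the species difference in nature added (64.7%). That term listed 12 members, and 6 to 10 when an aquaculture library was left out, where 55.6% to 76.1% of all genes were listed. Members at least 2-fold apart in nature, 4, became 2 after scaling and 2 at a minimum of 20. Members below control in nature in both species, 14, became 16 after scaling, which lowered the median nature difference of all genes from 0.63 to 0.43. The species contrast lost most of its calls over all genes when any aquaculture library was left out. Both members called in the species contrast stayed higher in peled under each alternative run. In the nature contrast directions turned with the library left out, as for TRINITY_DN23545_c0_g1, at 3.05 in omul and -0.68 in peled. No paired analysis was possible because each group holds 1 library, so replicate numbers pair nothing, and the fit already compares the species within each state.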

Other observations

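Members had neighbours in their assembly components that did not meet the rule in 2 cases. TRINITY_DN44864_c0_g2 was at 16.2 in control, 13.4 in acute, 7.26 in chronic and 2.64 in nature omul and at 1.52 in nature peled, and it was listed at 0 in peled control, acute and chronic libraries. The member TRINITY_DN44864_c0_g1 was at 13.7, 6.81, 4.08 and 7.203 in the same omul libraries and at 33.0, 38.3 and 11.1 in control, acute and chronic peled, with 2.52 in nature. Summed, the component was at 29.9 in the omul and 33.0 in the peled control. TRINITY_DN166691_c1_g1 was at 2.72 in control and 7.28 in acute omul, listed at 0 in chronic omul, and at 10.8 in nature omul. In peled it was at 3.34, 0.929, 0.070 and 0.514, so that chronic values were the lowest in both species, as in the member TRINITY_DN166691_c1_g4.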
